A study of Mus musculus with 4 samples.

Results

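Ctcf, its paralogue Ctcfl and 6 genes that encode partner factors of chromatin architecture (Yy1, Zfp143, Maz, Adnp, Chd8 and Ldb1) were examined as targets of CTCF itself in mouse hippocampus. The 8 genes, of 21755 protein-coding genes on chromosomes 1 to 19 and X, were chosen by name for their function, with earlier results of these data known. Every CTCF peak was taken whose summit lay in the body of 1 of these genes or within 10 kb of it, which gave 41 of the 90278 peaks of the list. Binding was measured by ChIP-seq, in which chromatin is precipitated with an antibody, here to CTCF, and its DNA is sequenced, in tissue labelled as a layer of the hippocampus from male adult mice of strain B6CASTF1/J, a cross of the C57BL/6J and CAST/EiJ strains, at an age of 2 months. The 4 libraries make up 2 biological replicates with 2 technical libraries each, and each replicate is a pool of 7 biosamples. No animal was treated or mutated as far as the labels say, so no 2 conditions could be compared. Both pools carry the same donor entry, and the labels do not say whether they hold different animals.

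The peaks were those the authors kept at an IDR (irreproducible discovery rate) of 0.05 when the replicates were compared. Each peak has 1 combined signal from the authors' caller, on a scale that no source states, and 1 signal from each replicate. With 1 value per replicate, no SD within a replicate and no test could be had, and read depth is unknown from the files used here. The tissue holds many cell types, so binding in few cells and weak binding in many cannot be told apart. Peaks hold no expression values, so the tissue could not be checked against marker genes. By sequence, 50.3% of the summits of the whole list had a match to the CTCF core motif, a string of 12 bases, within 50 bp and with at most 1 mismatch. Of the summits with a match, 35.2% held 1 and the same string, which is described below. No share for random windows is set beside these values, so they do not by themselves establish the antibody's target.

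CTCF is a zinc-finger protein that binds insulators and, where it halts cohesin, fixes the ends of chromatin loops, mostly where a pair of its motifs point towards each other. CTCFL, also called BORIS, shares its zinc fingers and is chiefly a protein of the male germ line. YY1, ZFP143 (the mouse counterpart of ZNF143) and MAZ are zinc-finger proteins that bind promoters and occur with CTCF at loop ends, ADNP and CHD8 belong to chromatin-remodelling machinery, and LDB1 is an adaptor that brings enhancers and promoters together without binding DNA. In mouse embryonic stem cells ADNP is known to limit CTCF binding at B2 elements, short interspersed repeats of rodents that carry a copy of the CTCF motif.

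The strongest peaks in these windows that held a core match carried unlike sequences around it. They are shown to let the bound strings of the separate genes be compared, from the RefSeq copy of GRCm38.p6 (mm10), which is C57BL/6J sequence, so the CAST/EiJ allele was not assessed. Capitals mark the 12 bases of the core match, and each run reads 5′ to 3′ on the strand given.
Ctcfl intron 7, chr2:173107565-173107594, + strand: taagattagCCACCAGAGGGTgctacagga
Ctcfl downstream, chr2:173089649-173089678, - strand: atctagtgcCCACCAGAGGGCaggcgtcaa
Zfp143 intron 11, chr7:110083959-110083988, - strand: caaaagccaCCACTAGATGGCaccaaacag
Maz downstream, chr7:127017055-127017084, + strand: gcaccgtccCCAGGAGGGGGCgctcaaacc
Adnp promoter, chr2:168207366-168207395, + strand: gccattgccCCACTAGGAGGCgccgtggat
Adnp intron 1, chr2:168205488-168205517, - strand: gtgtgggagTCAGTAGGGGGCgcattccct
The Ctcfl downstream and Zfp143 strings matched the core exactly, and the other 4 had 1 mismatch. None of these 30-base runs is soft-masked, the marking that RefSeq gives to repeats.

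Another set of peaks carried 1 and the same core string. The 12 bases CCAGAAGAGGGC, which have 1 mismatch to the core motif, were found at 14 of the 41 peaks, in 7 of the 8 windows (all but that of Maz). The whole list held this string at 17.7% of its summits. For each gene a run is shown with the most bases identical to the majority of the 14 (Adnp and Chd8 had several with the same number), and for Yy1 also the less alike 1, with the shared string in capitals. The runs printed are thus more alike than the whole set.
Ctcf intron 2, chr8:105662354-105662383, + strand: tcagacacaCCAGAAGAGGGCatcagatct
Ctcfl intron 5, chr2:173109165-173109194, + strand: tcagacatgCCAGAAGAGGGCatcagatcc
Yy1 intron 1, chr12:108804069-108804098, + strand: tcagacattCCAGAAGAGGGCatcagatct
Yy1 downstream, chr12:108828626-108828655, - strand: ccatggaggCCAGAAGAGGGCactgtatcc
Zfp143 intron 2, chr7:110069707-110069736, + strand: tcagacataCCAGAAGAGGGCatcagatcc
Adnp intron 1, chr2:168202224-168202253, - strand: tcagacacaCCAGAAGAGGGCattgtatcc
Chd8 downstream, chr14:52195821-52195850, - strand: ctgcgaaggCCAGAAGAGGGCgtgggatac
Ldb1 downstream, chr19:46029143-46029172, + strand: ctcttggagCCAGAAGAGGGCgccagaagc
Against the majority base at each position of the 14 runs, the 14 had 18 to 29 of 30 bases identical (median 25.5), with 24 to 29 in Ctcfl, 21 to 27 in Yy1 and 22 to 28 in Zfp143, and the other 9 core matches had 10 to 25. The run with 25 was an exact core match upstream of Adnp. The 12 bases of the shared string are the same in all 14 by selection, and the other 9 lack that string by definition. Part of this contrast was thus fixed beforehand, and only the flanking bases were free to differ among the 14. The majority was also taken from the 14 themselves, so each helped to set the flanking bases against which it was scored. The other 9 did not, so the contrast in the flanks favours the 14 as well. All 30 bases were soft-masked in 10 of the 14 runs with the shared string and in 1 of the 9 others, and no base was soft-masked in 0 of the 14 and 7 of the 9. The annotation used here does not name repeats, so their class was not determined. The string was noticed after the sequences had been read.

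All 8 genes had at least 2 CTCF summits in their windows, where 81.0% of all protein-coding genes had at least 1. Adnp had 9, Ctcf and Zfp143 had 7 each, Ctcfl and Yy1 had 5 each, Chd8 had 4, and Maz and Ldb1 had 2 each. Some of these counts depended on the list: the pooled-read list gave 4 for Ctcf, 4 for Zfp143 and 3 for Yy1, and the list of replicate 2 alone gave 3 for Yy1. The median was 5 summits per gene, against 3 for all protein-coding genes. Corrected for the length of the window, the median was 10.6 summits per 100 kb for the 8 genes, against 6.0 for all protein-coding genes and 3.43 over the genome as a whole. Adnp stood highest with 19.5 per 100 kb, at percentile 95.0 of protein-coding genes. Zfp143 followed with 12.9, then Ctcfl with 10.9, Yy1 with 10.6, Ctcf with 10.5 and Maz with 8.03, all above the median of protein-coding genes. Ldb1 with 5.94 and Chd8 with 5.02 were below it. These are counts of 2 to 9 summits, so neighbours in this order differ by few peaks, and no test was made. The order was taken with 10 kb flanks only. With 5 kb flanks Adnp had 5 summits and Zfp143 had 7, and with no flank they had 4 and 5.

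**Figure D1:**
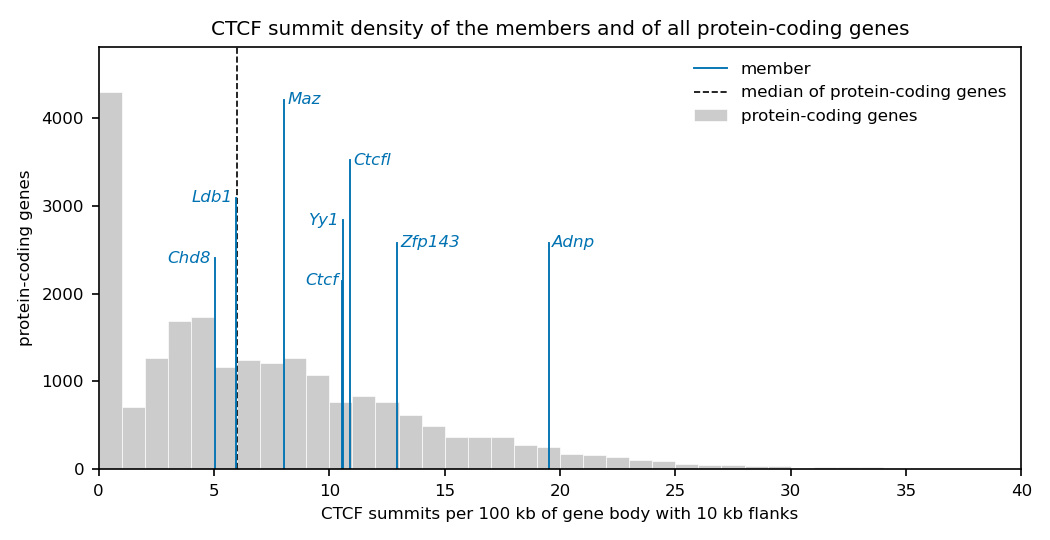
Number of protein-coding genes (vertical axis) by the density of CTCF summits in the gene's window (horizontal axis, summits per 100 kb); blue lines give the position of each member and their heights carry no value, and 10 genes lie beyond the axis. Of the 8 members, 6 lie right of the median of all protein-coding genes, with Adnp farthest at 19.5.

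Of the 41 summits, 22 lay in introns, 1 in a coding exon, 9 in upstream and 9 in downstream flanks. The median peak signal was 225, against 165 for the whole list, with a range of 46.1 to 808. The signal was above the median of the list for 23 of the 41 and in the top 10% of the list for 4, which were in Ctcfl, Maz and Adnp windows. For 11 peaks the nearest protein-coding transcription start site (TSS) belonged to another gene, and these are named below with that gene. The farthest flank summit that was counted lay 9722 bp upstream of Adnp with a signal of 225. The nearest that was not counted lay 10975 bp from Ldb1 with a signal of 568. With 5 kb flanks 33 summits remained of the 41.

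**Figure D2:**
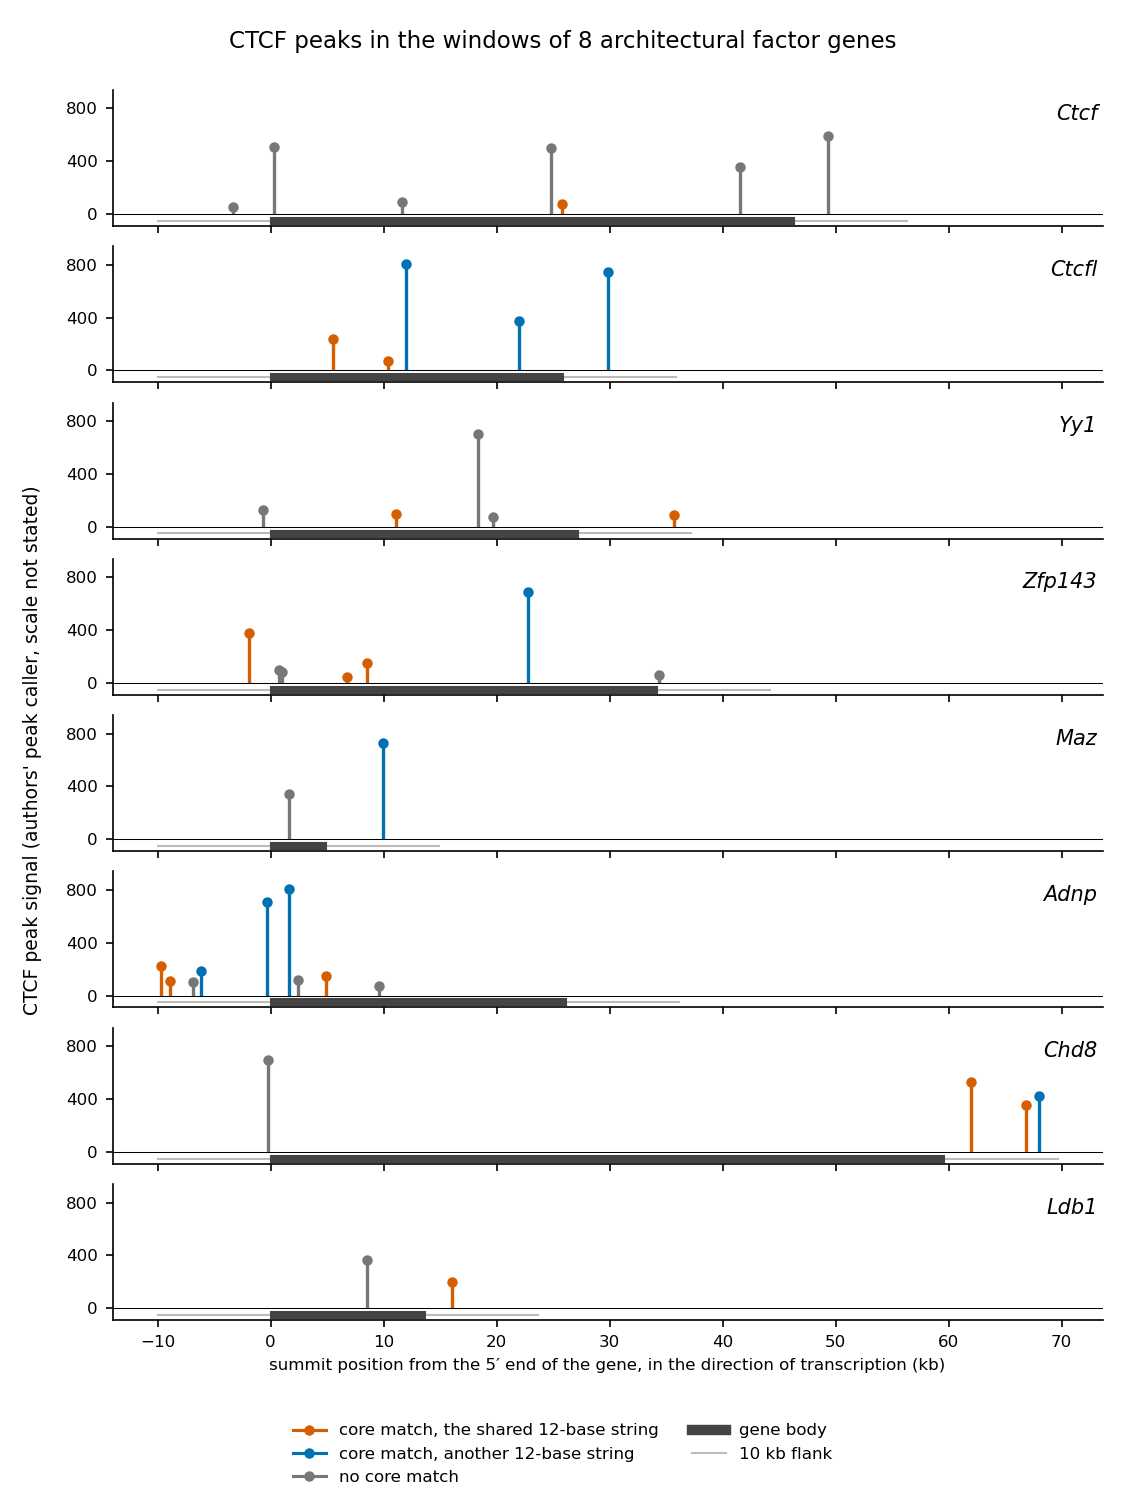
CTCF peak signal (vertical axis, 1 stick per peak) by summit position from the 5′ end of each gene in the direction of transcription (horizontal axis, kb), with the gene body as a dark bar and the 10 kb flanks as a thin line. Ctcf, Adnp and Chd8 have a peak above 500 within 1 kb of a start site, the body of Chd8 is empty, and orange sticks (the shared string) are mostly short.

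Ctcf lies on chromosome 8 (chr8:105636568-105682922, + strand). Its promoter, taken as 1 kb either side of a TSS, held a peak of signal 510 at chr8:105636586-105637126, with 258 in replicate 2 and 252 in replicate 1. The summit was in intron 1, 272 bp downstream of the TSS, and also inside the annotated body of Agrp, which has a start site nearby. No string within 50 bp of this summit had fewer than 3 mismatches to the core motif. The strongest peak of the Ctcf window, 595 (300 in replicate 2 and 296 in replicate 1), lay past the 3′ end of the gene at chr8:105685731-105686113, 360 bp from the TSS of Carmil2, a regulator of actin capping. A peak of 499 in intron 2 (251 in replicate 2, 249 in replicate 1) and 1 of 353 in intron 10 (175 in replicate 2, 179 in replicate 1) were also strong. The other 3 peaks of Ctcf had signals of 54.8 to 89.2. The gene of CTCF thus had strong peaks at both ends and in 2 introns, and its 1 core match, the shared string of intron 2, was at a peak of 79.4. The replicate 2 value of the weakest peak, upstream of the gene, belongs to a peak that was assigned to 2 ranked peaks. The nearest protein-coding TSS was that of Agrp for the peaks of 89.2 and 499, and that of Carmil2 for the peaks of 79.4, 353 and 595.

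Ctcfl, on chromosome 2 (chr2:173093609-173119525, - strand), had no promoter peak, and no candidate peak lay within 1 kb of its TSS. All 5 of its peaks held a core match. The strongest, in intron 7 at chr2:173107328-173107820, had a signal of 802, with 391 in replicate 2 and 413 in replicate 1. The peak downstream of the gene had 748 (390 in replicate 2, 362 in replicate 1). Both carry the unmasked strings printed above. The intron 9 peak of 372 had 2 core matches, and the peaks of intron 3 (238) and intron 5 (70.1) held the shared string. Binding at Ctcfl was therefore within and behind the gene and not at its start.

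Yy1, on chromosome 12 (chr12:108792973-108820148, + strand), had a promoter peak 651 bp upstream of its TSS at chr12:108792102-108792541. Its signal was 125, with 49.3 in replicate 2 and 74.4 in replicate 1. The replicate 2 value belongs to a peak that was also assigned to a neighbouring candidate, so the replicates may not describe the same stretch. The strongest Yy1 peak, 705, lay in intron 2 at chr12:108811160-108811593, with 376 in replicate 2 and 331 in replicate 1. The other 3 peaks had 70.7 to 97.9, of which the downstream 1 (85.9) lies in Slc25a29, a gene of mitochondrial transport whose TSS is the nearest. Yy1 thus had 1 strong peak among 4 weak ones.

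Zfp143, on chromosome 7 (chr7:110061217-110095394, + strand), had 2 overlapping promoter peaks in intron 1, 282 and 544 bp downstream of a TSS, at chr7:110061784-110062223 and chr7:110062046-110062485. The nearer had a signal of 97.8, with 50.6 in replicate 2 and 46.9 in replicate 1. The other had 79.4, with 45.3 in replicate 2 and 35.2 in replicate 1. Both were weak beside the intron 11 peak of 686 at chr7:110083715-110084162 (351 in replicate 2, 336 in replicate 1) and a peak of 381 at 1890 bp upstream. The other 3 peaks had signals of 46.1 to 154. The 1 with 56.8, 182 bp past the gene's end, is nearer to the TSS of Wee1, a kinase of the cell cycle, than to that of Zfp143.

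Maz, on chromosome 7 (chr7:127022130-127027037, - strand), is the shortest of the 8 genes at 4908 bp. Its stronger peak, 726 at chr7:127016729-127017335, had 370 in replicate 2 and 353 in replicate 1, but it lay 258 bp from the TSS of Pagr1a, a neighbour whose product joins histone methyltransferase complexes. The peak in the gene itself, 346 (189 in replicate 2, 157 in replicate 1), was the sole summit in a coding exon, exon 2, at 1091 bp downstream of the nearest TSS. It lay just outside the 1 kb limit, and the closest string to the core motif had 4 mismatches, the most of any of the 41 peaks. In the comprehensive annotation, an alternative added with the data in view, a further start site puts this peak in a promoter.

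Adnp, on chromosome 2 (chr2:168180986-168207112, - strand), had the strongest peak of all 8 windows. It lay in intron 1 at chr2:168205199-168205751 with a signal of 808, of which replicate 2 gave 399 and replicate 1 gave 414. A promoter peak of 709, 273 bp upstream of the TSS at chr2:168207161-168207669, had 370 in replicate 2 and 342 in replicate 1. Both strong peaks held a core match, and their matches pointed away from each other. The promoter peak of Adnp was the only 1 of the 6 promoter peaks with a core match. The remaining 7 peaks were weaker, 3 in intron 1 with 75.3 to 146 and 4 upstream with 102 to 225, and those upstream lie inside the body of Dpm1, an enzyme of sugar-donor synthesis. Of the 9 Adnp peaks, 3 held the shared string.

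Chd8, on chromosome 14 (chr14:52198151-52257780, - strand), was the longest gene at 59630 bp and had no summit in its body. Its promoter peak had a signal of 699 at chr14:52257747-52258193, 198 bp upstream of the TSS, with 362 in replicate 2 and 340 in replicate 1. The 3 further peaks, of 526, 427 and 358, lay behind the gene inside Supt16, a subunit of the histone chaperone FACT, whose TSS was the nearest. In replicate 2 they had 256, 236 and 195, and in replicate 1 they had 272, 195 and 162, where the 272 belongs to a peak assigned to 2 ranked peaks. Ldb1, on chromosome 19 (chr19:46031570-46045214, - strand), had 2 peaks, 1 of 363 in intron 1 at chr19:46036531-46036862 (178 in replicate 2, 182 in replicate 1) and 1 of 194 behind the gene (101 in replicate 2, 94.7 in replicate 1). Neither lay within 1 kb of a TSS in the basic annotation, and with the comprehensive annotation the first did.

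A promoter peak was thus present at 5 of the 8 genes (62.5%), namely Ctcf, Yy1, Zfp143, Adnp and Chd8, where 38.0% of all protein-coding genes had 1. The median of the strongest promoter signal was 510 over the 5, against 197 over all protein-coding genes with a promoter peak. It was higher still, 591, over the cohesin and chromatin genes described below, so a strong promoter signal was not particular to these genes. The 5 divided into 3 with a signal of 510 or more (Ctcf, Chd8 and Adnp) and 2 with 125 or less (Yy1 and Zfp143). The promoter peaks of Yy1 and Zfp143 were all 440 bp wide, a width that 37.4% of the whole list and 14 of the 41 peaks shared. These 14 had signals of 46.1 to 125 and the other 27 had 102 to 808. Without peaks of that width, an alternative chosen after seeing the data, 3 genes kept a promoter peak.

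The promoter summits of Ctcf and Chd8, which were strong and had no core match, are shown with the summit base as the capital, on the strand of the gene.
Ctcf promoter summit, chr8:105636837-105636866, + strand: gtgtttgtctccctCtaccgtccctgctgc
Chd8 promoter summit, chr14:52257963-52257992, - strand: cgcccccagcggcgGgggtcagaggcctgg
In both, the closest string in the searched window had 3 mismatches. In the whole list 20.5% of the 9654 summits within 1 kb of a protein-coding TSS had a core match, against 53.8% of the other summits. The 8 genes showed a like division, with a core match at 1 of 6 promoter peaks and at 22 of 35 others, which was not tested. Of the 6 promoter peaks, 2 were the overlapping peaks of Zfp143, so the 6 stand for 5 genes. These 6 were counted by the TSSs of the member alone, unlike those of the list. By the rule of the list, 2 of the 35 would also count as promoter peaks. They are the Ctcf peak 360 bp from Carmil2, without a core match, and the Maz peak 258 bp from Pagr1a, with 1.

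A core match was found at 23 of the 41 summits (56.1%), beside the 50.3% of the list. Its centre lay a median of 7.5 bp and at most 37.5 bp from the summit. The largest distance was at the Ctcfl intron 9 peak, where the match of lower coordinate was used of the 2 present. The share varied among the genes: 5 of 5 in Ctcfl, 6 of 9 in Adnp, 3 of 4 in Chd8, 4 of 7 in Zfp143, 2 of 5 in Yy1, 1 of 2 in Maz and in Ldb1, and 1 of 7 in Ctcf. Exact matches were 3, in Ctcfl, Zfp143 and Adnp. With at most 2 mismatches the count was 34 of 41, where 75.7% of the whole list had such a match, and Ctcf then had 5 of 7. The strongest peaks of Ctcf, Yy1 and Ldb1 were among those with 2 mismatches, marked here in capitals.
Ctcf downstream, chr8:105685894-105685923, - strand: cgggcgcaaACACCAGGGGACgccaccctc
Yy1 intron 2, chr12:108811351-108811380, + strand: ctgatctgaCCTCTAGGTGGTgcagtagca
Ldb1 intron 1, chr19:46036682-46036711, - strand: ccgcagaggCCAGAAGAGGGTgccatttcc
The Yy1 string lay 0.5 bp from the summit, measured from its centre, at a peak of 705, and thus a string with 2 mismatches stood at the centre of 1 of the stronger peaks.

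Signal differed between peaks with the shared string and those with another core string. The 14 with the shared string had signals of 46.1 to 526 (median 150). The 9 with another string had 188 to 808 (median 709), and the 18 without a core match had 54.8 to 705 (median 120). The ranges overlapped, but 7 of the 9 peaks with another string were above 400, as were 1 of the 14 with the shared string and 5 of the 18 without a core match. The mark of 400 is arbitrary and lies between a shared-string peak of 381 and a peak of 427 with another string. The classes rest on the limit of 1 mismatch to the core motif. Some of the 18 held a string 1 base from the shared string, such as the peaks in Ldb1 intron 1 (363) and past the end of Zfp143 (56.8). In the whole list the medians were 112 with the shared string, 460 with another core match and 126 without a match, in the same order of shared below other. Of the 14, 6 were 440 bp wide, and of the 9 none was. Width and signal move together in these lists, and the part of either in the difference was not tested.

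**Figure D3:**
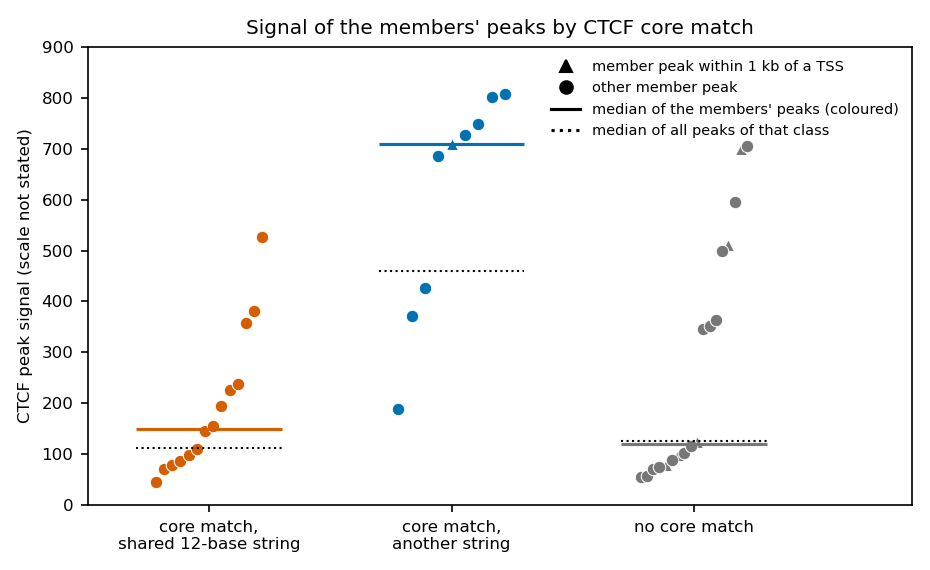
Peak signal (vertical axis) of the 41 peaks by class of CTCF core match (horizontal axis); coloured lines are the medians of the members' peaks, dotted lines the medians of all peaks of that class, and triangles are promoter peaks. The 9 peaks with another core string have a median of 709, against 150 for the 14 with the shared string.

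The core matches pointed with the gene's transcription at 12 peaks and against it at 11. For the Ctcfl intron 9 peak, which had 2 matches, only the match of lower coordinate was used, here and in the pairs. Among 15 pairs of neighbouring matches in 1 window, 5 pointed towards each other, 5 away from each other and 5 the same way. The 2 strong Adnp peaks, 1878 bp apart between their matches, were among those pointing away. In Zfp143 the intron 2 and intron 11 matches, 14252 bp apart, pointed towards each other, as did the 2 matches of the Yy1 window, 24557 bp apart. No orientation prevailed in these windows.

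The signals of the replicates at these peaks are given as a description, since every peak of the list was kept for being reproducible between the same replicates, which selects for like signals. Replicate 2 was higher than replicate 1 at 29 of the 41, and over the whole list the median ratio of replicate 2 to replicate 1 was 1.07. After that ratio was taken out, the log2 ratios of the 41 ran between -0.69 and 0.54, with an SD of 0.24 over the peaks. The ratio of each peak was set beside the SD of the ratios in its own decile of the list by signal, an SD of 0.07 in the strongest decile and 1.03 in the weakest. By this measure 30 of the 41 lay within 1 SD, where 74.5% of the whole list did, and 3 lay beyond 2 SD, where 3.99% of the whole list did. The SD was taken from the same list, so most of its peaks lie within it by construction. The 3 were the intron 7 peak of Ctcfl, the intron 1 peak of Adnp with a signal of 808 and the promoter peak of Yy1, at -2.57, -2.16 and -2.31 SD, all lower in replicate 2. For the first 2 the replicate signals differed little, 391 in replicate 2 against 413 in replicate 1 for Ctcfl and 399 against 414 for Adnp, the SD among the strongest peaks being small. At the Yy1 promoter the replicates differed by more, 49.3 in replicate 2 against 74.4 in replicate 1. The combined signal was between 0.895 and 1.07 times the sum of both replicate signals, so it adds nothing independent to them.

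**Figure D4:**
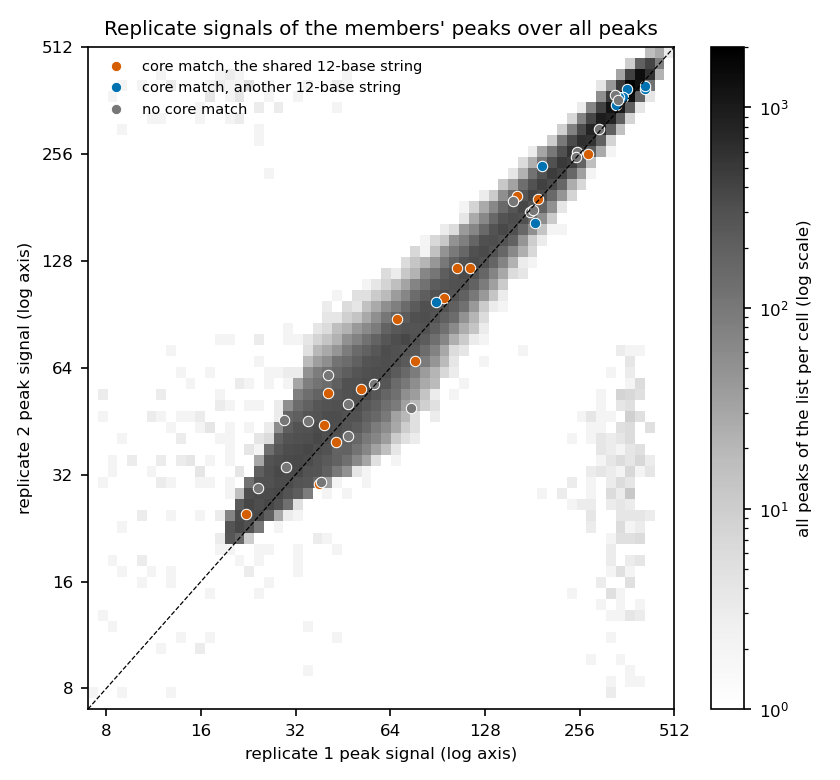
Signal in replicate 2 (vertical log axis) against replicate 1 (horizontal log axis) for the 41 peaks, coloured by core match, over all 90278 peaks in grey; the dashed line marks equal signals. The 41 lie along the diagonal with most of the list, which was itself selected for reproducibility, and the grey cells far from it are other peaks of the list.

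Of the 41 summits, 30 recurred within 100 bp in all 3 other thresholded lists (1 per replicate and 1 from pooled reads), beside 70.1% of the whole list. The 3 that recurred in none had signals of at most 56.8. The same windows held 98 candidate peaks of the ranked list, so 41.8% passed the IDR limit, beside 44.3% of all candidates. The 57 that did not pass had signals of 13.5 to 74.5, and the weakest that passed had 46.1. At promoters, candidates that did not pass were found at Maz (38.3 and 36.8), at Ldb1 (4, the highest 39.9), at Yy1 (3), at Zfp143 (2) and at Chd8 (1). The list of replicate 2 alone kept a Maz promoter peak, of signal 26.6. Maz and Ldb1 thus had promoter candidates below the limit, and Ctcfl had none listed.

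Motifs of the partner proteins were searched at the same summits. The YY1 motif AANATGGC was present within 50 bp of 1 of the 41, where 2.13% of the whole list held it. This was the intron 1 peak of Adnp with a signal of 115 (57.5 in replicate 2, 56.8 in replicate 1), which had no CTCF core match.
Adnp intron 1 with the YY1 motif, chr2:168204647-168204676, + strand: tccagatcctcAAAATGGCagtacagggaa
The ZNF143 motif CCCANAATG and the MAZ motif GGGAGGG were at 0 of the 41, where 0.635% and 2.44% of the whole list held them. All were searched on both strands without a mismatch, and no match says only that these letters are absent from the window.

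The start regions themselves were searched in RefSeq windows of 300 bases, which 7 of the 8 genes had (none for Ctcfl), some with several. No window of these genes held a CTCF core match with at most 1 mismatch, where 4.36% of 32619 such windows did. The core match of the Adnp promoter peak, at chr2:168207375-168207386, lies just outside the Adnp window, chr2:168207063-168207362. The MAZ motif occurred 4 times in 1 Maz window and 2 times in the other, some of them overlapping, and also in windows of Ctcf, Chd8 and Ldb1, where 22.1% of all windows held it. The YY1 motif was in a window of Adnp and in that of Ctcf (6.08% of all windows) and not in that of Yy1. The ZNF143 motif was in none (1.63% of all windows).

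Genes of related function are given by their counts. Of 7 family members of these factors that matched the annotation, 6 had a summit in the window and 4 a promoter peak (57.1%), the strongest at Patz1 (616), a zinc-finger relative of Maz. Of 15 cohesin subunits, cohesin regulators and chromatin partners, all 15 had a summit and 9 a promoter peak (60%). The strongest were at Stag1 (817), a cohesin subunit, Pds5a (785), which regulates cohesin release, and Smc3 (616), a core cohesin subunit. The median density was 8.86 summits per 100 kb for the family members and 5.54 for the cohesin and chromatin genes, against 10.6 for the 8 genes and 6.0 for all protein-coding genes. Over the genes with a promoter peak, the median of the strongest promoter signal was 340 for the family members and 591 for the cohesin and chromatin genes. For the 8 genes it was 510.

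Ctcf itself shared its counts, 7 summits in the window and 1 in the promoter, with 454 other protein-coding genes. Among those, the genes whose strongest promoter signal came closest to the 510 of Ctcf on the log2 scale were Snph (511), Got1l1 (506) and Tmem41b (516). The likeness covers these 3 measures in 1 tissue and nothing else.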

How the data were processed

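CTCF ChIP-seq peak lists of 2 biological replicates were analysed, grouped by the replicate number in the labels. The deposited lists were made by the authors from 1 alignment per replicate, on mm10 per the labels' notes; the sources used here do not name the aligner, the peak caller or the control. Each deposited peak carries a signal on a scale not stated, an IDR score of up to 1000 (540 at IDR 0.05, 830 at 0.01) and a -log10 q-value, which was not used in any result. Read depth is unknown.

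The main list was the thresholded between-replicate list. Replicate signals came from the ranked between-replicate list, whose first input peaks were found in the replicate 1 list (78.1%) and never in that of replicate 2, and the second the other way round (80.0% and 0). A summit is the peak start plus its offset. Genes and TSSs came from GENCODE M21 basic, with introns numbered along the principal transcript, and sequences from RefSeq GRCm38.p6. Motifs were searched within 50 bp of summits on both strands, and the search and counts were tested on simulated data. The genes and lists were chosen with earlier results of these data known; all 8 genes are named, with each promoter peak and the strongest peak in full. Of 8 family members listed, 7 matched the annotation. Python 3.11.15, numpy 2.4.6, pandas 2.3.3 and matplotlib 3.10.9 were used. Alternatives were other lists, limits and widths.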

Additional observations from a re-analysis of the deposited data

How the results depend on the processing

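The counts of summits, of genes with a summit, of genes with a promoter peak and of core matches were recomputed under 16 alternative settings, each for the counts it bears on, which gave 36 values, of which 31 stayed within 1.5 times. Summits numbered 41, 99 with 50 kb flanks, 33 with 5 kb flanks, 23 with no flank and 27 without peaks 440 bp wide. With 5 kb flanks Adnp fell to 5, Chd8 to 2 and Maz to 1. Core matches numbered 23, and 3 with no mismatch allowed. Genes with a promoter peak numbered 5, and 3 without peaks 440 bp wide (Yy1 and Zfp143 lost theirs), 4 within 500 bp, 7 within 5 kb and 7 with the comprehensive annotation. That annotation and the width limit were chosen after seeing the data. The lists of 1 replicate alone gave 37 to 38 summits, 8 genes with a summit and 5 to 6 with a promoter peak. All 8 genes kept a summit except Chd8 with no flank. The pooled-read list gave 32 summits, with Ctcf at 4, Zfp143 at 4, Yy1 at 3 and Chd8 at 5. Per gene, 10 settings gave 80 counts, of which 57 stayed within 1.5 times and 23 did not. Unknown depth, 1 value per replicate and the unstated signal scale limit every comparison of signals. No paired analysis was possible because there is 1 kind of sample and no groups to compare.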
